A study of Drosophila melanogaster with 12 samples.

Results

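Heads of adult Drosophila melanogaster that expressed mouse TET2 with the R1261C substitution (mTET2-R1261C) were compared with heads that expressed mouse TET2 with the R43G substitution (mTET2-R43G). The comparison rests on 6 of the 12 libraries in the series, 3 per mutant, and on the 12433 of 17730 annotated genes whose counts summed to at least 10 over all 12 libraries. Both mutants carried the dTet-Gal4 driver and a UAS transgene with an N-terminal Flag tag in the same landing site on chromosome 2, so that the substitution is the stated difference between them. The group mTET2-wt had the same driver and an unchanged mouse TET2 transgene, and control (dTet-Gal4>w1118) had the driver without a transgene. Flies were 1 day old, and each library was made from a pool of heads of both sexes in equal ratio, so that neither cell types nor single animals are resolved. The labels call the libraries biological replicates. Transgene levels were not analysed here, since the counts cover annotated fly genes only.

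TET enzymes oxidise methylcytosine to hydroxymethylcytosine. R1261C lies in the catalytic domain and is known from leukaemia, whereas R43G lies near the N-terminus, outside that domain, and was found in a glioma. Drosophila has a single Tet gene and very little cytosine methylation in its DNA, and its Tet is known to act on RNA and to be needed in the nervous system. With the Gal4 system, the yeast activator is made in the cells of the driver and switches on the transgene behind its UAS sites.

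Counted read pairs ranged from 15894383 to 19434046 per library. Levels are given as CPM, which are read pairs normalised to the TMM-scaled library size, and since they are not divided by gene length they compare libraries and not genes. DEGs had a Benjamini-Hochberg adjusted p-value of 0.05 or less in edgeR's quasi-likelihood test and a log2 fold change of at least 1 in either direction. A log2 fold change is that of mTET2-R1261C over mTET2-R43G unless another pair is named, with its standard error as SE, and a level with ± is the mean and SD of 3 libraries.

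Few genes separated the mutants by this rule. There were 9 DEGs (0.0724% of the genes tested), of which 7 (0.0563%) were higher and 2 (0.0161%) lower in mTET2-R1261C. Without a minimum fold change 12 genes were called (0.0965%), 9 higher and 3 lower. At an unadjusted p-value under 0.05 there were 1612 genes (13%), 818 higher (6.58%) and 794 lower (6.39%). In 1644 genes (13.2%) the libraries of the mutants did not overlap, with mTET2-R1261C above in 827 (6.65%) and below in 817 (6.57%). For reference, 24 genes (0.193%) were called in mTET2-R1261C and 18 (0.145%) in mTET2-R43G relative to mTET2-wt, and 185 (1.49%) and 538 (4.33%) relative to control, contrasts that share libraries. The number of DEGs was 4 in a fit of the 6 libraries alone, 5 without mTET2-R1261C replicate 1, 3 without its replicate 2 and 3 without mTET2-R43G replicate 2. Without a minimum fold change, the number called went from 12 to 5 when mTET2-R1261C replicate 1 was left out. It was 3 without its replicate 2 and 3 without mTET2-R43G replicate 2. Without mTET2-R43G replicate 1, mTET2-wt replicate 1, mTET2-wt replicate 2 or control replicate 1 it was 7. Of the 7 without mTET2-R43G replicate 1, 5 were among the 12. Without both mutant libraries numbered 2, the genes called were alpha-Est4, alpha-Est3 and CCHa1. DESeq2 gave 2 DEGs, of which alpha-Est3 was among the 9, and 23 once its filter on mean counts was switched off, 8 of them among the 9. With that filter it gave no adjusted p-value to alpha-Est4 and CCHa1, which were thus not called by it.

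Of the DEGs, alpha-Est4 and alpha-Est3 were neighbours in the alpha-esterase cluster on chromosome arm 3R, and both were higher in mTET2-R1261C. These genes encode carboxylesterases, enzymes that split ester bonds in lipids and foreign compounds. alpha-Est4 (FBgn0015572; 3R, 7536687 to 7538615) had 16.4, 24.9 and 19.2 CPM in the mTET2-R1261C libraries, against 0.847, 1.11 and 1.62 CPM in the mTET2-R43G libraries. Every mTET2-R1261C library was above all 9 others, since mTET2-wt had 1.33 to 1.61 CPM and control 0.979 to 1.24 CPM. The log2 fold change was 4.08 (SE 0.23, adjusted p = 5.87e-06). Relative to mTET2-wt, alpha-Est4 had a value of 3.79 in mTET2-R1261C (adjusted p = 1.85e-05) and of −0.29 in mTET2-R43G (adjusted p = 0.697).

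alpha-Est3 (FBgn0015571; 3R, 7538972 to 7541631), the next gene on the same strand, had 41.8, 58.8 and 46.7 CPM in mTET2-R1261C, against 19.5, 20.4 and 20.0 CPM in mTET2-R43G. On the log2 scale the change was 1.30 (SE 0.12, adjusted p = 0.00111), and again mTET2-wt (21.1 to 23.3 CPM) and control (16.7 to 20.9 CPM) were near mTET2-R43G. On the other side of alpha-Est4, 297 bases away on the same strand, alpha-Est5 (FBgn0261393; 3R, 7533496 to 7536390) had 23.7, 38.3 and 22.7 CPM in mTET2-R1261C, against 9.07, 6.01 and 8.23 CPM in mTET2-R43G. The libraries of the mutants did not overlap, but the log2 fold change of 1.86 (SE 0.35) did not pass (adjusted p = 0.142, but 0.0129 without control replicate 3 and 0.0236 without the control group), and the control libraries ranged from 8.76 to 22.4 CPM. alpha-Est2, which follows alpha-Est3 on the opposite strand, had 38.5, 32.6 and 18 CPM in mTET2-R1261C, against 31.9, 16.9 and 28.5 CPM in mTET2-R43G, with overlap. The antisense gene asRNA:CR46128, which runs along alpha-Est3 and alpha-Est4 on the other strand, had 1.34 ± 0.169 CPM in mTET2-R1261C, against 1.10 ± 0.199 CPM in mTET2-R43G, and the counting kept the strands apart.

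Over the list of carboxylesterases, 13 of the 14 members tested had a positive log2 fold change. An unadjusted p-value under 0.05 was found in 9, all higher in mTET2-R1261C, and 2 were called, beside 6.58% of all genes tested higher at that p-value and 0.0965% called. The median log2 fold change was 0.30, and that of all genes tested was 0.00. After the 3 neighbours, alpha-Est1 had the smallest p-value, with 106 ± 7.10 CPM in mTET2-R1261C, against 82.2 ± 13.9 CPM in mTET2-R43G (log2 fold change 0.36, adjusted p = 0.303). Est-6, the carboxylesterase of the seminal fluid and haemolymph, named here after its values were seen, had 360.2 ± 80.1 CPM, against 220.3 ± 52.7 CPM (log2 fold change 0.71, adjusted p = 0.322). The summed level of the list was 1546, 1568 and 1229 CPM in mTET2-R1261C, against 1149, 880.5 and 1162 CPM in mTET2-R43G, without overlap and with mTET2-R1261C replicates 1 and 2 the highest and mTET2-R43G replicate 2 the lowest of the 6. Fat body markers had the same libraries at their ends (38129.7, 33642 and 20229.9 CPM in mTET2-R1261C, against 24905, 15776 and 20431 CPM in mTET2-R43G), and their part in the list was not tested. Control, at 1382 to 1862 CPM, was above mTET2-R43G and reached beyond mTET2-R1261C.

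CCHa1 was the DEG with the smallest p-value in the opposite direction. It encodes CCHamide-1, a neuropeptide of the brain and of endocrine cells of the gut. CCHa1 (FBgn0038199; 3R, 14092504 to 14096835) had 2.03, 2.35 and 2.09 CPM in mTET2-R1261C, against 12.6, 15.1 and 13.5 CPM in mTET2-R43G. The mTET2-R1261C libraries were near those of mTET2-wt (2.15 to 2.76 CPM) and control (2.13 to 2.48 CPM), and mTET2-R43G stood alone. The log2 fold change was −2.67 (SE 0.14, adjusted p = 5.87e-06). Relative to mTET2-wt, CCHa1 had a value of −0.13 in mTET2-R1261C (adjusted p = 0.999) and of 2.54 in mTET2-R43G (adjusted p = 1.11e-05). alpha-Est4, alpha-Est3 and CCHa1 were called in each of the 12 fits that left out 1 library.

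The other DEG lower in mTET2-R1261C was lncRNA:CR44691 (FBgn0265902; X, 17828096 to 17831094), a non-coding RNA that overlaps CG6398 on the opposite strand. It had 2, 1 and 0 counts in mTET2-R1261C, against 118, 71 and 33 counts in mTET2-R43G. Set against a floor of 3 counts per library, it was at least 24.8-fold lower in mTET2-R1261C (adjusted p = 0.0171), and mTET2-wt and control had 2 to 4 and 0 to 4 counts. lncRNA:CR44691 was no longer called without replicate 1, 2 or 3 of mTET2-R1261C (adjusted p = 0.0814, 0.148 and 0.0548) or without replicate 1 or 2 of mTET2-R43G (adjusted p = 0.0558 and 0.0892), with limma-voom (adjusted p = 0.196) or in the fit of 6 libraries (adjusted p = 0.0980).

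**Figure D1:**
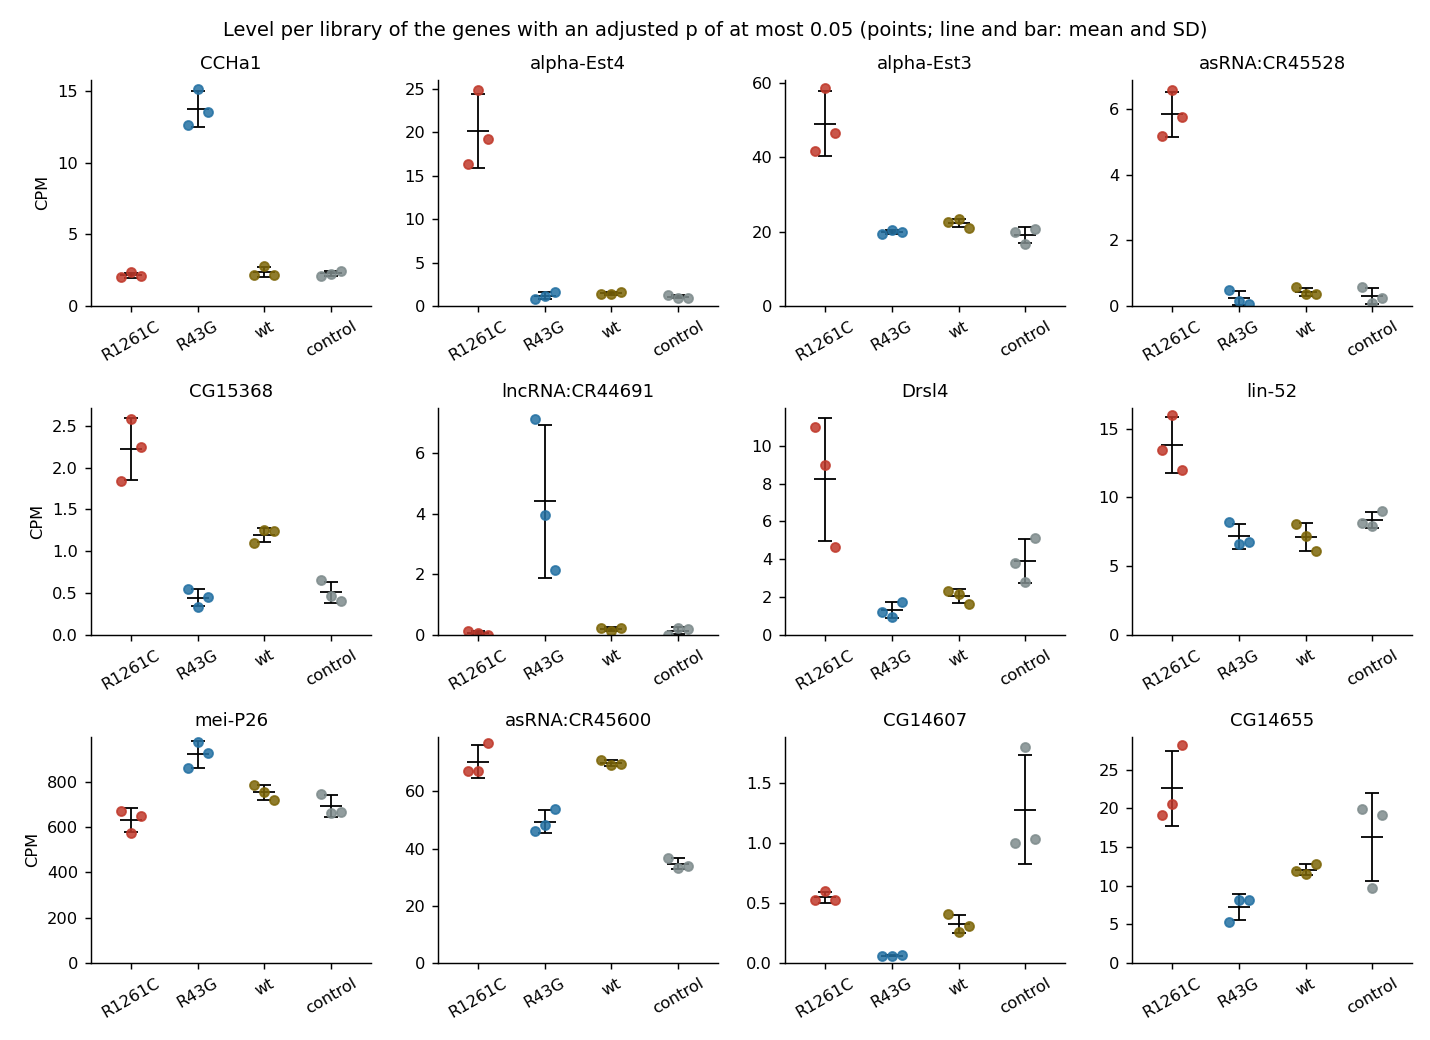
Level in CPM (y axis, from 0) of the 12 genes with an adjusted p-value of at most 0.05 in mTET2-R1261C, mTET2-R43G, mTET2-wt and control (x axis), with 1 point per library and the mean and SD of 3 libraries as a line and bar. alpha-Est4, alpha-Est3 and asRNA:CR45528 were high in the 3 mTET2-R1261C libraries, and CCHa1 and lncRNA:CR44691 in the 3 mTET2-R43G libraries.

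A second pair of neighbours was called on the X chromosome. asRNA:CR45528 (FBgn0267084; X, 5755492 to 5756710) had 5.18, 6.56 and 5.75 CPM in mTET2-R1261C, against 0.484, 0.167 and 0.0648 CPM in mTET2-R43G (log2 fold change 4.56, SE 0.55, adjusted p = 0.0103). It lies antisense to CG15771, which itself had 56.5 CPM, against 61.1 CPM. lin-52 (FBgn0029800; X, 5753390 to 5754958), a subunit of the DREAM complex that represses cell cycle and developmental genes, is 534 bases away on the strand of asRNA:CR45528. lin-52 had 13.4, 16 and 12 CPM in mTET2-R1261C, against 8.22, 6.57 and 6.74 CPM in mTET2-R43G (log2 fold change 0.94, SE 0.14, adjusted p = 0.0477). In both genes every library of mTET2-wt and control was below the lowest of mTET2-R1261C. asRNA:CR45528 lost its call without mTET2-R1261C replicate 2 (adjusted p = 0.0698) or mTET2-R43G replicate 2 (adjusted p = 0.0927), and lin-52 kept it only without mTET2-R1261C replicate 3 and without mTET2-wt replicate 3 (adjusted p from 0.0410 to 0.271 over the 12 fits).

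CG15368 (FBgn0030104; X, 9215785 to 9216540) had 1.84, 2.59 and 2.25 CPM in mTET2-R1261C, against 0.544, 0.334 and 0.454 CPM in mTET2-R43G. On the log2 scale the change was 2.31 (SE 0.29, adjusted p = 0.0141), with mTET2-wt between the mutants (1.10 to 1.25 CPM) and control at 0.404 to 0.651 CPM. The gene 86 bases away on the same strand, the odorant-binding protein Obp8a, which is named here after its values were seen, had 5.21 CPM in mTET2-R1261C, against 2.28 CPM in mTET2-R43G (log2 fold change 1.19, adjusted p = 0.204). CG15368 lost its call without replicate 2 or 3 of mTET2-R1261C (adjusted p = 0.107 and 0.0506), without mTET2-R43G replicate 2 (adjusted p = 0.0972) and in the fit of 6 libraries (adjusted p = 0.128), as well as with the replicate block (adjusted p = 0.0719).

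Drsl4 (FBgn0052282; 3L, 3315620 to 3315942), a relative of the antifungal peptide Drosomycin, had 11, 8.97 and 4.65 CPM in mTET2-R1261C, against 1.21, 0.946 and 1.75 CPM in mTET2-R43G. The log2 fold change was 2.66 (SE 0.36, adjusted p = 0.0177). mTET2-wt had 1.61 to 2.32 CPM, whereas control had 2.78 to 5.13 CPM and overlapped mTET2-R1261C. Relative to control, Drsl4 had a value of 1.07 in mTET2-R1261C (adjusted p = 0.168) and of −1.58 in mTET2-R43G (adjusted p = 0.0345). The call between the mutants was lost without replicate 1 or 2 of mTET2-R1261C (adjusted p = 0.0857 and 0.110), without replicate 1 or 2 of mTET2-R43G (adjusted p = 0.0770 and 0.147) and in the fit of 6 libraries (adjusted p = 0.128), with limma-voom (adjusted p = 0.161) and with the replicate block (adjusted p = 0.0734).

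CG14655 and CG14607, the last DEGs, were close to the threshold. CG14655 (FBgn0037275; 3R, 4777497 to 4780302) had 19.1, 20.5 and 28.1 CPM in mTET2-R1261C, against 5.32, 8.18 and 8.17 CPM in mTET2-R43G (log2 fold change 1.65, SE 0.26, adjusted p = 0.0498). CG14607 (FBgn0037488; 3R, 7241760 to 7244006) had 8, 10 and 10 counts in mTET2-R1261C, against 1 count in each mTET2-R43G library, and was at least 3.04-fold higher than a floor of 3 counts per library (adjusted p = 0.0498). Control had 19.9, 9.69 and 19.2 CPM of CG14655 and 17, 35 and 18 counts of CG14607, so that in both genes mTET2-R43G was the lowest group. With 1 library left out, CG14607 was called in none of the 12 fits (adjusted p from 0.0607 to 0.286) and CG14655 only in the fit without control replicate 2 (0.00618 to 0.246).

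Of the genes called below the minimum fold change, mei-P26 (FBgn0026206; X, 9163255 to 9189309), a TRIM-NHL protein known from germline differentiation, had 673, 573 and 651 CPM in mTET2-R1261C, against 859, 974 and 928 CPM in mTET2-R43G (log2 fold change −0.54, SE 0.08, adjusted p = 0.0477). mTET2-wt had 718 to 786 CPM and control 662 to 746 CPM, all below mTET2-R43G. asRNA:CR45600 (FBgn0267160; 3R, 15136985 to 15140121) had 67, 67.2 and 77 CPM in mTET2-R1261C, against 46, 48.4 and 53.9 CPM in mTET2-R43G (log2 fold change 0.51, SE 0.08, adjusted p = 0.0498), with 69.4 to 71.2 CPM in mTET2-wt and 33.2 to 36.8 CPM in control. At 1 end it shares a short stretch with CG6912 on its own strand (gap −19 bases). Read pairs of both genes were not counted there, so that pairs at that end are missing from its level. mei-P26 was called in none of the 12 fits that left out 1 library (adjusted p from 0.0558 to 0.262), and asRNA:CR45600 only in the fit without mTET2-R43G replicate 3 (0.0374 to 0.286). lin-52, CG14655, CG14607, mei-P26 and asRNA:CR45600 also lost their calls in the fit of 6 libraries, with the replicate block and with upper-quartile factors, and all of these but mei-P26 lost them with limma-voom.

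**Figure D2:**
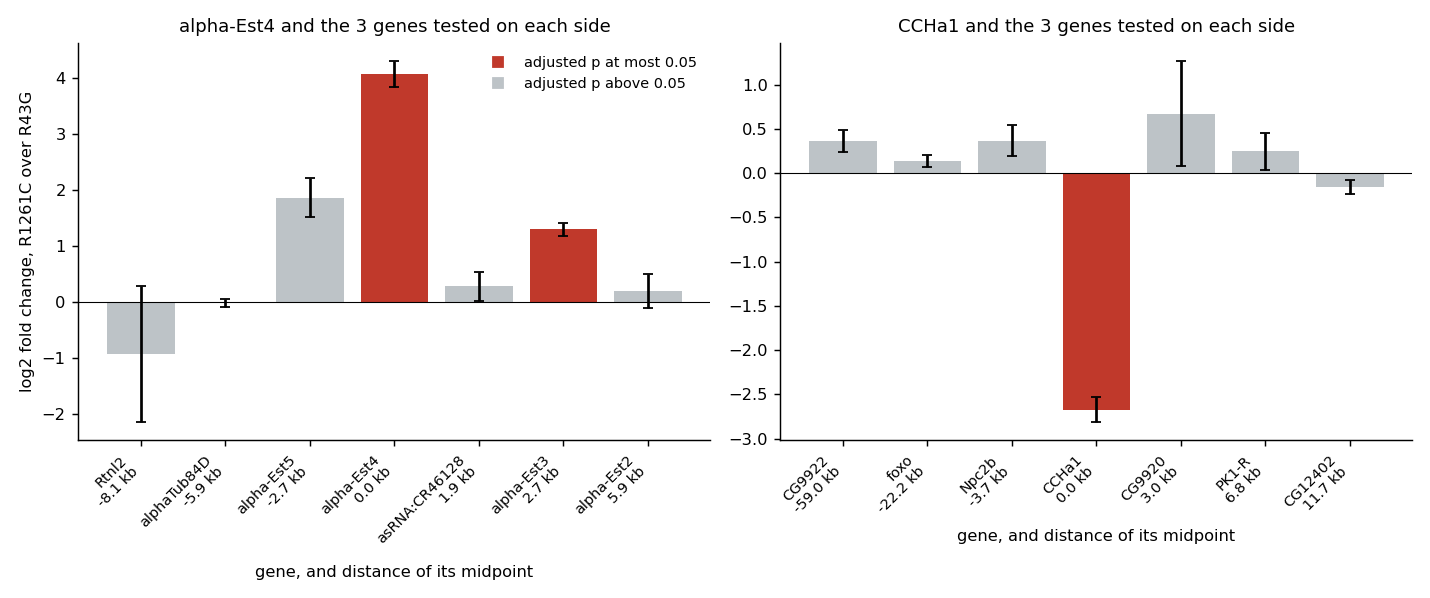
Log2 fold change of mTET2-R1261C over mTET2-R43G (y axis, bars from 0, error bars are SE) for alpha-Est4 and CCHa1 and for the 3 genes tested on each side of them (x axis, in order along the chromosome). alpha-Est5, alpha-Est4 and alpha-Est3 stood together at 1.86, 4.08 and 1.30, whereas no gene beside CCHa1 had an adjusted p-value of 0.05 or less.

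The called genes lay on 3 of the chromosome arms. Of the 12, 6 were on 3R, 5 on X, 1 on 3L and 0 on chromosome 2, which holds the transgene site and 4810 of the genes tested. On chromosome 2, edgeR gave an unadjusted p-value under 0.05 for 587 genes. That was 12.1% of the genes tested on 2L and 12.3% on 2R, beside 13% of all genes tested. DESeq2 called 40 genes there after adjustment, of 114 called on all chromosomes. Those 114 were 0.699% higher and 1.40% lower of the 5436 genes with an adjusted p-value. The 12 called genes had 23 different genes directly beside them, of which 2 were called themselves. Of the 21 others, 4 (19%) had an unadjusted p-value under 0.05, all in the direction of the called gene, beside 13% of all genes tested. These were alpha-Est5, Obp8a, CG6912 next to asRNA:CR45600 and Drsl5 next to Drsl4.

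CCHa1 had no such neighbour. Npc2b, a sterol-binding protein gene 79 bases away on the opposite strand, had 77.4, 89.8 and 56.6 CPM in mTET2-R1261C, against 51.1, 51.2 and 71.4 CPM in mTET2-R43G, with overlap (adjusted p = 0.391). CG9920, 458 bases away on the other side, had 6 to 9 counts, against 4 to 6 counts. foxo, the transcription factor of insulin signalling, had 238, 220.2 and 219 CPM in mTET2-R1261C, against 209.8, 205 and 202 CPM in mTET2-R43G (log2 fold change 0.14, adjusted p = 0.427).

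The genes around the transgene site were compared too, since both mutants carry an insertion there. In the window from 50 kb before to 50 kb after the nearby Bomanin genes, which encode immune-induced peptides, edgeR called 0 of 30 genes tested, with 4 at an unadjusted p-value under 0.05, and DESeq2 called 0. The median log2 fold change was 0.07, and 17 values were positive. sbb, a transcriptional regulator and long gene of that window, had 293, 222 and 312 CPM in mTET2-R1261C, against 328, 379 and 380.0 CPM in mTET2-R43G (log2 fold change −0.40, adjusted p = 0.303). lncRNA:CR42736 had 4.26, 5.42 and 6.01 CPM in mTET2-R1261C, against 5.20, 4.34 and 4.86 CPM in mTET2-R43G, with 0 to 1 counts in the control libraries. The eye colour gene w, a marker of transgene vectors, had 20.2, 23.3 and 22.8 CPM in mTET2-R1261C, against 22.7, 23 and 22.4 CPM in mTET2-R43G (log2 fold change −0.04, SE 0.12), and 3.61 to 5.56 CPM in control. The body colour gene y had 11.4 ± 0.674 CPM in mTET2-R1261C, against 11.6 ± 2.31 CPM in mTET2-R43G (log2 fold change −0.03, SE 0.28).

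Among genes that were not called, those with the smallest p-values and no overlap between the mutants included several with known roles. ppk19, of the pickpocket family of sodium channels, had 17, 18 and 16 counts in mTET2-R1261C, against 2 counts in each mTET2-R43G library, at least 5.59-fold above a floor of 3 counts (adjusted p = 0.0524). Acat1, an acetyl-CoA acetyltransferase, had 101, 77.5 and 57.5 CPM in mTET2-R1261C, against 32.4, 31.5 and 44.7 CPM in mTET2-R43G (log2 fold change 1.12, adjusted p = 0.0868). cry, the blue-light receptor cryptochrome of the circadian clock, had 246, 227 and 219.9 CPM in mTET2-R1261C, against 186, 169 and 178 CPM in mTET2-R43G (log2 fold change 0.38, adjusted p = 0.142). In cry, mTET2-wt (173 to 186 CPM) and control (169 to 195 CPM) were below every mTET2-R1261C library.

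In the other direction, asRNA:CR44291, antisense to CG31460, had 2, 2 and 1 counts in mTET2-R1261C, against 10, 22 and 10 counts in mTET2-R43G, at least 4.64-fold below (adjusted p = 0.0524). Here mTET2-wt had 22 to 25 counts and control 1 to 2. dpr8, a cell surface protein of the synaptic Dpr family, had 163, 118 and 172 CPM in mTET2-R1261C, against 216, 281 and 266 CPM in mTET2-R43G (log2 fold change −0.75, adjusted p = 0.142). fru, the transcription factor of male courtship circuits, had 393, 313 and 402 CPM in mTET2-R1261C, against 476, 533 and 513 CPM in mTET2-R43G (log2 fold change −0.46, adjusted p = 0.230). In dpr8 and fru the lowest library of the 6 was mTET2-R1261C replicate 2. Ir41a, an ionotropic receptor of olfactory neurons, had 4.72 to 5.23 CPM, against 6.90 to 9.13 CPM (log2 fold change −0.66, adjusted p = 0.204), and asRNA:CR45520 had 3.01 to 4.34 CPM, against 5.44 to 9.96 CPM (log2 fold change −1.12, adjusted p = 0.204). Of these uncalled genes, DESeq2 called Acat1, cry, dpr8 and fru (adjusted p = 4.26e-05, 0.00227, 0.000372 and 0.00930). In edgeR, Acat1 passed without mTET2-R1261C replicate 3 (adjusted p = 0.0315) and asRNA:CR45520 without mTET2-R43G replicate 3 (adjusted p = 0.0327). Without its filter on mean counts DESeq2 also called ppk19, asRNA:CR44291, Ir41a, asRNA:CR45520 and, alpha-Est5, ich and CG42592.

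Genes that the study named from its RNA-seq, among them the knocked-down Atg16 and ich, were set side by side in the mutants. Atg16, part of the complex that attaches Atg8 to autophagosome membranes, had 85.8, 119.6 and 91 CPM in mTET2-R1261C, against 68.8, 43 and 37.9 CPM in mTET2-R43G. The libraries did not overlap, and the log2 fold change was 0.99 (SE 0.19, adjusted p = 0.158). DESeq2 called Atg16 (adjusted p = 0.000352), and so did edgeR without mTET2-R43G replicate 1 (adjusted p = 0.00558). Relative to mTET2-wt, Atg16 had a value of 1.80 in mTET2-R1261C (adjusted p = 0.00213) and of 0.81 in mTET2-R43G (adjusted p = 0.233). CG42592, close to Atg16 on the same strand, had 14.4, 21.8 and 11.8 CPM in mTET2-R1261C, against 8.89, 5.29 and 3.24 CPM in mTET2-R43G (log2 fold change 1.46, SE 0.34, adjusted p = 0.254), with at most 1 count in each library of mTET2-wt and control.

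ich, a transcription factor of tracheal development, had 2, 2 and 7 counts in mTET2-R1261C, against 61, 10 and 32 counts in mTET2-R43G (log2 fold change −3.27, SE 0.73, adjusted p = 0.230). Its mTET2-R43G libraries were above those of mTET2-R1261C and spread widely. hkb, a zinc finger factor first known from the embryo, had 5.84, 5.54 and 7.22 CPM in mTET2-R1261C, against 7.50, 5.12 and 3.69 CPM in mTET2-R43G, with overlap (log2 fold change 0.19, SE 0.45, adjusted p = 0.890). CG6592 had 3.00 ± 0.110 CPM in mTET2-R1261C, against 2.81 ± 0.911 CPM in mTET2-R43G (log2 fold change 0.10, adjusted p = 0.899). Dhc16F, a dynein heavy chain, had 0.602 to 1.71 CPM, against 1.51 to 1.94 CPM, and lncRNA:CR46123 had 0 counts in all 6 libraries, with 4.22 to 6.32 CPM in mTET2-wt.

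Tet itself, whose expression the driver follows, had 355, 266 and 361 CPM in mTET2-R1261C, against 378, 425 and 423 CPM in mTET2-R43G (log2 fold change −0.32, SE 0.11, adjusted p = 0.311). All mTET2-R43G libraries were above those of mTET2-R1261C, and Tet is a long gene, which bears on the next comparison. Myd88, the adaptor of the Toll pathway, had 40.1 ± 2.08 CPM in mTET2-R1261C, against 37.7 ± 2.05 CPM in mTET2-R43G (log2 fold change 0.09, adjusted p = 0.643). Stat92E, the transcription factor of the JAK-STAT pathway, had 558 ± 56.5 CPM, against 498 ± 34.6 CPM (log2 fold change 0.16, adjusted p = 0.394). Rel, the NF-kappaB factor of the IMD pathway, lies inside Nmdmc on the same strand, and 0 read pairs were assigned to it in any library.

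The difference that took in most genes followed gene span, the distance from the first to the last base of the annotated gene with introns included. Among the 9124 protein-coding genes with a mean level of at least 1 CPM, the median log2 fold change was 0.12 for genes of up to 1 kb, 0.10 for 1 to 2 kb, 0.04 for 2 to 5 kb, −0.02 for 5 to 10 kb, −0.09 for 10 to 30 kb, −0.19 for 30 to 100 kb and −0.29 for genes over 100 kb. Short genes were thus mostly higher in mTET2-R1261C and long genes mostly lower. Of the 632 genes over 30 kb, 93.2% had a negative log2 fold change. In these, 301 were lower and 1 was higher at an unadjusted p-value under 0.05 (47.8% in all), whereas of the 5953 genes of up to 5 kb 94 were lower and 630 higher. After adjustment edgeR called 0 of the 632, whereas DESeq2 called 55 of the 600 to which it gave an adjusted p-value, all lower, beside 76 lower (1.40%) and 38 higher (0.699%) among all 5436 genes with such a value. Without its filter on mean counts DESeq2 called 20 of the 632, all lower, beside 37 lower (0.300%) and 35 higher (0.283%) among 12351 genes. Relative to mTET2-wt, the median of the genes over 30 kb was −0.05 in mTET2-R1261C and 0.15 in mTET2-R43G.

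**Figure D3:**
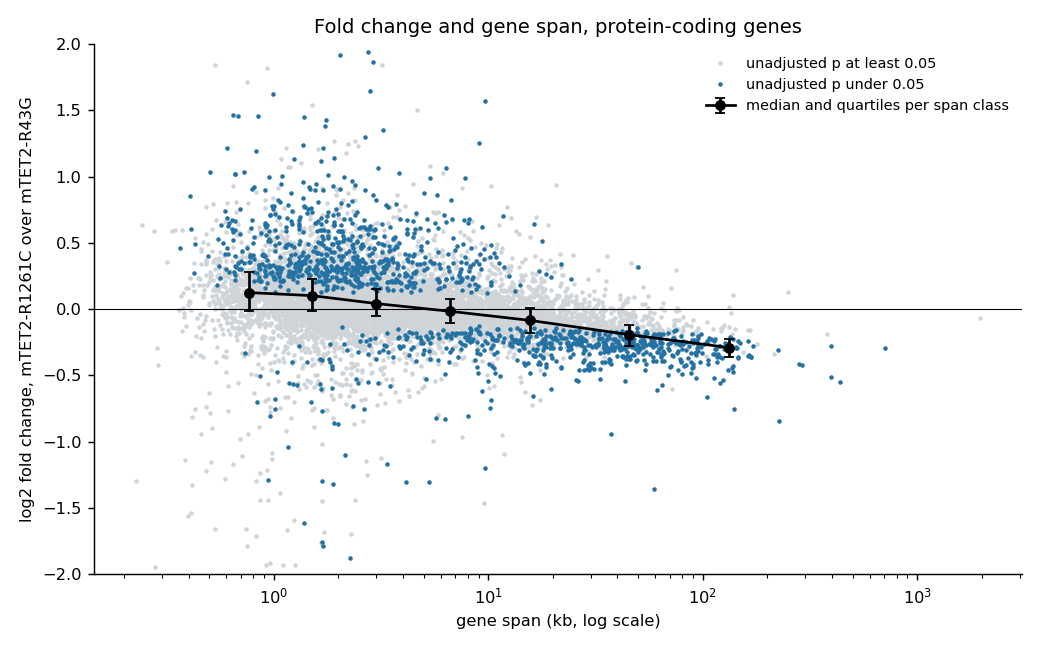
Log2 fold change of mTET2-R1261C over mTET2-R43G (y axis) against the span of the gene in kb (x axis, log scale) for protein-coding genes with a mean of at least 1 CPM, with coloured points for an unadjusted p-value under 0.05 and black points and bars for the median and quartiles of each span class. 36 genes lie outside the axis and are not drawn. The medians pass from 0.12 in the shortest class to −0.29 in the longest.

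The libraries of a mutant did not take equal part in this. The median deviation of the 632 genes from their own mean over 12 libraries, in log2 CPM, was −0.02, −0.20 and 0.04 in mTET2-R1261C, against 0.06, 0.22 and 0.18 in mTET2-R43G. It was 0.01, 0.02 and −0.02 in mTET2-wt and 0.02, −0.11 and −0.17 in control. The mutants did not overlap, but mTET2-R1261C replicate 3 and mTET2-R43G replicate 1 nearly met. The means differed by −0.215. Relative to mTET2-wt, the mean differed by −0.06 in mTET2-R1261C and by 0.15 in mTET2-R43G.

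Without mTET2-R1261C replicate 2 the median log2 fold change of the genes over 30 kb was −0.14, with 153 lower and 1 higher at an unadjusted p-value under 0.05. Without mTET2-R43G replicate 2 it was −0.17, with 165 lower and 3 higher, and without both of these libraries it was −0.11, with 62 lower and 1 higher. The direction was thus the same in these fits, with fewer genes at that p-value. As a share of all counted read pairs, genes over 30 kb took 18.5%, 17.4% and 20.6% in mTET2-R1261C, against 20.4%, 22.8% and 21.4% in mTET2-R43G, so that the shares overlapped.

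**Figure D4:**
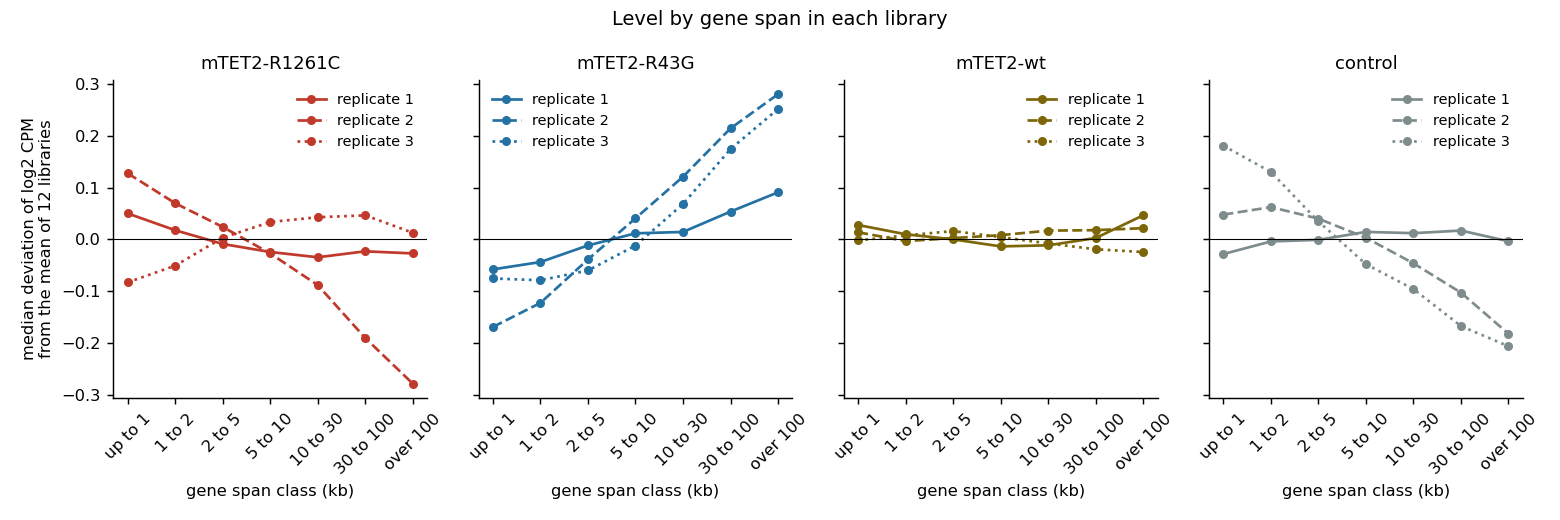
Median deviation of log2 CPM from the mean of the 12 libraries (y axis) by gene span class in kb (x axis), in 1 panel per group with 1 line per library. In the class over 100 kb mTET2-R1261C had −0.03, −0.28 and 0.01, mTET2-R43G had 0.09, 0.28 and 0.25, mTET2-wt had 0.05, 0.02 and −0.02 and control had 0.00, −0.18 and −0.21.

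Counting covered whole gene bodies. The change went with exonic length and, mainly in genes with over 10 kb of introns, with intronic length. In genes with 1.5 to 3 kb of exons, the median log2 fold change was 0.055 with up to 1 kb of introns (2189 genes). It was 0.057 with 1 to 10 kb of introns (933 genes) and −0.09 with over 10 kb (179 genes). In genes with up to 1 kb of introns, it was 0.12 with up to 1.5 kb of exons (2437 genes) and −0.09 with over 5 kb of exons (167 genes). Genes long in both, with over 5 kb of exons and over 10 kb of introns, had a median of −0.18 (725 genes). No measure of RNA integrity was used here, and its part in the pattern was not tested.

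A further fit took the span trend of each library out as an offset, a choice made after the trend had been seen. It called 12 genes (0.0965%), among them alpha-Est4 (log2 fold change 3.99), alpha-Est3 (1.24), CCHa1 (−2.69), asRNA:CR45528 (4.46), CG15368 (2.18), lncRNA:CR44691, Drsl4 (2.46), lin-52 (0.85) and mei-P26 (−0.40). CG14607, CG14655 and asRNA:CR45600 were not called (adjusted p = 0.0503, 0.0803 and 0.141). asRNA:CR44291 and dpr8 were called in this fit (adjusted p = 0.0451 and 0.0482), dpr8 with a log2 fold change of −0.46 in place of −0.75. Tet had a log2 fold change of −0.07 and fru of −0.17, and the unadjusted p-value was under 0.05 in 1279 genes (10.3%).

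Genes of known pathways were described by counts and medians. The span trend was fitted to these same libraries, so a list that follows its span class loses its shift by construction once the trend is out. edgeR called alpha-Est4, alpha-Est3, CCHa1 and Drsl4 among all list members, beside 0.0965% of all genes tested. DESeq2 called 2 of the 16 hormone genes to which it gave an adjusted p-value. It also called 1 of 9 carboxylesterases, 1 of 17 neuropeptide receptors, 1 of 15 clock, 1 of 14 cuticle and 1 of 17 autophagy genes with such a value. Among all 5436 genes with such a value, it called 0.699% higher and 1.40% lower. At an unadjusted p-value under 0.05, 19 of 79 cytochromes P450, the monooxygenases of detoxification and hormone metabolism, were higher and 1 was lower, beside 6.58% and 6.39% of all genes. Neither tool called a P450, and the median log2 fold change was 0.23. Cyp12a5 had 17.5, 18.5 and 13 CPM in mTET2-R1261C, against 10.6, 10.6 and 6.87 CPM in mTET2-R43G (log2 fold change 0.80, adjusted p = 0.254). Cyp4e2 had 112, 97.1 and 83.9 CPM, against 75.8, 56.4 and 78.2 CPM (log2 fold change 0.48, adjusted p = 0.305). Cyp4ac3 was on the other side, with 8.53 to 9.20 CPM, against 9.86 to 12.6 CPM (log2 fold change −0.40, adjusted p = 0.302). With the span trend out, 13 were higher and 2 lower, and the median was 0.17.

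Of 67 glutathione and UDP transferases, which couple foreign compounds to glutathione or sugars, 8 were higher and 1 was lower at an unadjusted p-value under 0.05 (median 0.16), and with the span trend out 4 were higher and 2 lower (median 0.07). Before the trend was taken out, 6.58% of all genes tested were higher and 6.39% lower at that p-value. Fat body markers, of a tissue rich in such enzymes, overlapped between the mutants in their sum. apolpp, the lipid carrier of the haemolymph, made up most of it, with 30301, 27402 and 15587 CPM in mTET2-R1261C, against 19179, 12155 and 15559.8 CPM in mTET2-R43G (log2 fold change 0.64, adjusted p = 0.376). The P450 sum was 3129.8, 2909 and 2318 CPM in mTET2-R1261C, against 2343, 1917 and 2388 CPM in mTET2-R43G, also with overlap. In both lists mTET2-R1261C replicates 1 and 2 were the highest of the 6 libraries and mTET2-R43G replicate 2 the lowest. In bulk heads, fewer cells of a type and less RNA per cell cannot be told apart.

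Of the humoral immune effectors, Drsl4 was the member called among 37 tested, beside 0.0965% of all genes tested. At an unadjusted p-value under 0.05, 3 were higher and 1 was lower, beside 6.58% and 6.39% of all genes tested. Apart from Drsl4, these were Drsl5 (81.9 ± 21.2 CPM in mTET2-R1261C, against 59.5 ± 7.22 CPM in mTET2-R43G), the stress peptide TotX (25.7 ± 13.2 CPM, against 11 ± 6.19 CPM) and, on the lower side, Drsl2 (1 to 4 counts, against 7 to 31 counts). The antimicrobial peptides of higher level overlapped between the mutants. Drs, the antifungal peptide Drosomycin, had 33.8, 105 and 207 CPM in mTET2-R1261C, against 303, 421 and 38.9 CPM in mTET2-R43G (log2 fold change −1.14, SE 0.89, adjusted p = 0.601). DptA, a diptericin of the IMD pathway, had 5.44, 30.3 and 175 CPM in mTET2-R1261C, against 31.3, 276 and 21.5 CPM in mTET2-R43G (log2 fold change −0.63, SE 1.05). AttC, an attacin, had 6.23, 22.7 and 181 CPM, against 83.5, 258 and 18 CPM. Replicate 3 was the highest library of mTET2-R1261C and the lowest of mTET2-R43G for all 3 peptides. The median of the list was −0.41, and 0.27 without mTET2-R43G replicate 2.

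Of 23 genes of Toll and IMD signalling, psh and imd were higher and Tak1 was lower at an unadjusted p-value under 0.05 (median 0.05). Among all genes tested, 6.58% were higher and 6.39% lower at that p-value, so that these counts were near the background. imd, the adaptor of the IMD pathway, had 15.3, 13.7 and 13.4 CPM in mTET2-R1261C, against 11.8, 12.4 and 12.4 CPM in mTET2-R43G (adjusted p = 0.349). Of 9 JAK-STAT genes, Socs36E, a feedback inhibitor of the pathway, had 60.9 to 69.6 CPM, against 71.8 to 82 CPM (log2 fold change −0.26, adjusted p = 0.305). Of 14 haemocyte markers, PPO1, the prophenoloxidase of crystal cells, had 11.3, 3.79 and 1.36 CPM in mTET2-R1261C, against 1.75, 0.835 and 1.68 CPM in mTET2-R43G, with overlap (log2 fold change 1.94, SE 0.70, adjusted p = 0.322). TotA, a Turandot stress peptide, had 299.6, 317 and 116 CPM in mTET2-R1261C, against 237, 91.2 and 90.0 CPM in mTET2-R43G, and TotB had 1 to 7 counts, against 1 to 3 counts.

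Several lists of neuronal genes had negative medians. Of 13 sleep regulators (median span 34.1 kb), 6 were lower and 0 higher at an unadjusted p-value under 0.05, beside 6.39% of all genes lower and 47.8% of the genes over 30 kb at that p-value, with a median of −0.16. With the span trend out, 0 were lower and 1 higher, and the median was −0.04. Sh, the Shaker potassium channel, had 779.7, 538 and 675 CPM in mTET2-R1261C, against 771, 933 and 1065 CPM in mTET2-R43G (log2 fold change −0.47, and −0.17 with the trend out). Rdl, a GABA receptor subunit, had 488, 347 and 462 CPM, against 493, 551 and 566 CPM (log2 fold change −0.31, and −0.15 with the trend out). Of 17 circadian clock genes, cry was higher and nmo lower at that p-value, and the median was −0.09, or −0.02 with the trend out. Of 15 neuronal markers brp, a protein of the synaptic active zone, was lower at that p-value, and of 13 photoreceptor markers none, with log2 fold changes from −0.08 to 0.09.

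Of 30 neuropeptide receptors (median span 17.9 kb), 4 were lower and 0 higher at an unadjusted p-value under 0.05. Of all genes tested, 6.39% were lower and 6.58% higher at that p-value. In the span class of 10 to 30 kb, 185 of 1211 genes were lower and 20 higher. The list median was −0.14, or −0.03 with the trend out. rk, the receptor of the tanning hormone bursicon, had 14.2, 15.5 and 15.6 CPM in mTET2-R1261C, against 19.5, 21.4 and 20.6 CPM in mTET2-R43G, without overlap (log2 fold change −0.44, adjusted p = 0.230, and −0.33 with the trend out). TkR99D, a tachykinin receptor, had 26.5, 21.1 and 28.7 CPM, against 36, 33.2 and 32.6 CPM (log2 fold change −0.42, and −0.32 with the trend out). Of 39 neuropeptide precursors, CCHa1 was the one called, beside 0.0965% of all genes tested. In this list 5 were higher and 2 lower at an unadjusted p-value under 0.05 (median span 2.12 kb, median log2 fold change −0.10 with and without the trend). Nplp4 had 2.95, 1.99 and 3.24 CPM in mTET2-R1261C, against 1.33, 1.28 and 1.43 CPM in mTET2-R43G (log2 fold change 1.02, adjusted p = 0.303), and SIFa, a peptide of courtship and feeding circuits, had 9.77 to 13.1 CPM, against 6.74 to 10.3 CPM.

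The list of ecdysone and juvenile hormone genes (23 tested, median span 21.3 kb) was split. At an unadjusted p-value under 0.05, 7 were lower, the ecdysone receptor EcR and the nuclear receptors and early factors br, Eip78C, Eip75B, Eip74EF, Hr39 and ftz-f1, and 3 were higher, the juvenile hormone enzymes Jheh1, Jheh2 and jhamt. At that p-value 6.39% of all genes tested were lower and 6.58% higher. Among the 1211 genes in the span class of 10 to 30 kb, 185 were lower and 20 higher. Of the 632 genes over 30 kb, 301 were lower and 1 higher. br had 51.9, 38.9 and 54.9 CPM in mTET2-R1261C, against 62.9, 65.7 and 68.8 CPM in mTET2-R43G, without overlap (log2 fold change −0.44, adjusted p = 0.302). EcR had 445, 383 and 440.3 CPM, against 480.0, 531 and 489 CPM (log2 fold change −0.24, and 0.01 with the span trend out). With the trend out 1 gene of the list was lower and 2 were higher, and the median was 0.01 in place of −0.11. DESeq2 called 2 of the list, both lower in mTET2-R1261C.

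**Figure D5:**
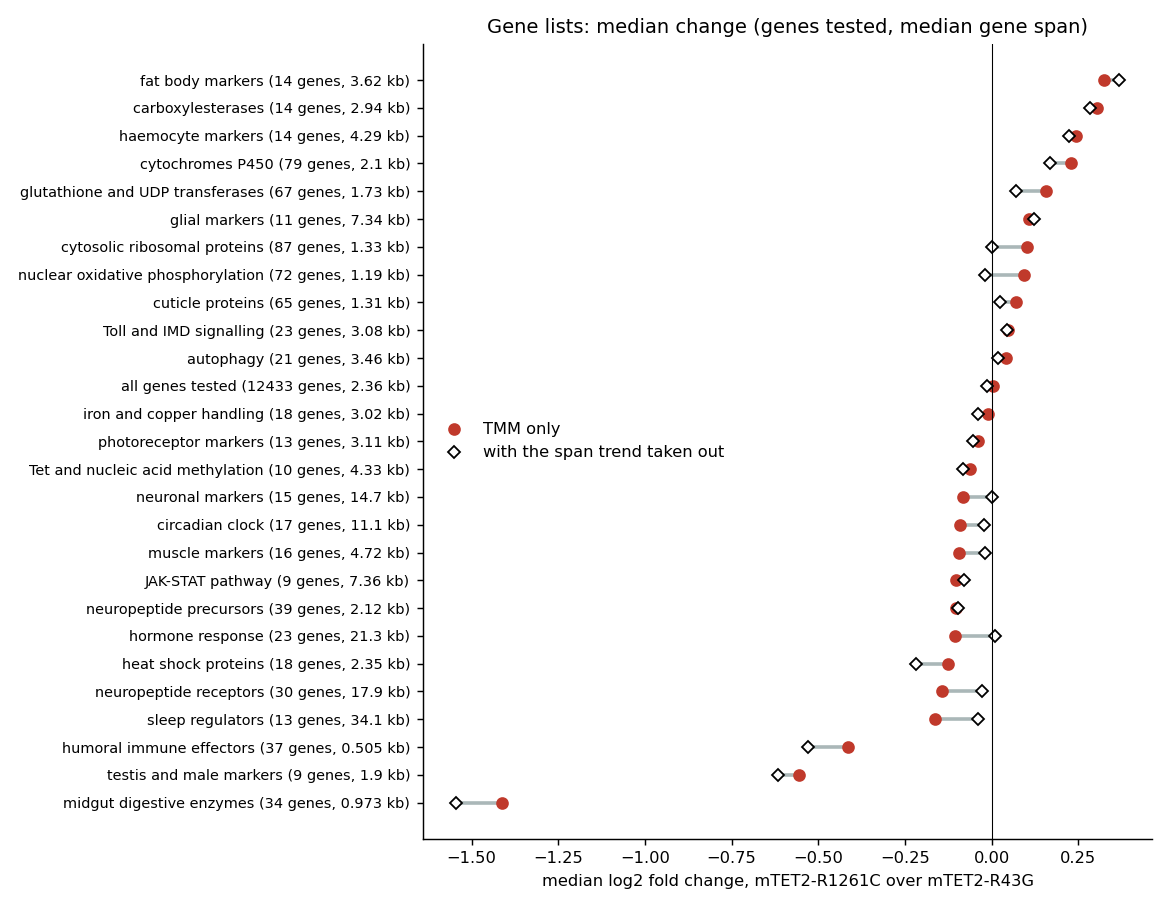
Median log2 fold change of mTET2-R1261C over mTET2-R43G (x axis) for gene lists (y axis, with the number of genes tested and their median span), with TMM scaling only and with the span trend of each library taken out. The medians of sleep regulators, hormone response and ribosomal proteins moved to −0.04, 0.01 and 0.00, whereas that of carboxylesterases was 0.28 and that of fat body markers 0.37. The trend was fitted to these same libraries, so such a move is by construction for lists that follow their span class.

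Lists of short housekeeping genes had small positive medians. Of 72 nuclear genes of oxidative phosphorylation, 5 were higher and 0 lower at an unadjusted p-value under 0.05 (median 0.09, or −0.02 with the trend out). For reference, 6.58% of all genes tested were higher and 6.39% lower at that p-value. Among the 5953 protein-coding genes of up to 5 kb, 630 were higher and 94 lower. Of 87 cytosolic ribosomal proteins none was under that p-value (median 0.10, or 0.00 with the trend out). Of 65 cuticle proteins, 7 were higher and 5 lower (median 0.07). Cpr76Bc had 10.1, 9.57 and 7.27 CPM in mTET2-R1261C, against 3.99, 3.62 and 5.25 CPM in mTET2-R43G (log2 fold change 1.07, adjusted p = 0.179), and Cpr65Au had 144, 120.0 and 94.5 CPM, against 71.8, 80.7 and 87.9 CPM (log2 fold change 0.58, adjusted p = 0.254). Of 21 autophagy genes, Atg16 alone was under that p-value, and the median was 0.04.

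Markers of other tissues were read beside these values. Midgut digestive enzymes summed to 366, 126 and 111 CPM in mTET2-R1261C, against 101, 131 and 142 CPM in mTET2-R43G, and the high library was mTET2-R1261C replicate 1. Testis and male markers summed to 1204, 912 and 1314 CPM in mTET2-R1261C, against 658, 1189 and 554 CPM in mTET2-R43G, and female markers to 14493 to 25609 CPM, against 9207 to 23664 CPM. Glial markers summed to 2538 to 3083 CPM, against 2283 to 2646 CPM, with Gs2, the glutamine synthetase of glia, at 1033, 991 and 894 CPM in mTET2-R1261C, against 809, 777 and 878 CPM in mTET2-R43G (log2 fold change 0.24, adjusted p = 0.333). Photoreceptor markers, which mark head tissue, were high in all 6 libraries, at 36847 to 44707 CPM, against 39978 to 45842 CPM. Among 18 heat shock proteins, Hsp60A was higher at an unadjusted p-value under 0.05 (median −0.13), and among 18 genes of iron and copper handling, MtnB, a metallothionein (median −0.01). For this list and those below, 6.58% of all genes tested were higher and 6.39% lower at that p-value. The median of the heat shock proteins was 0.94 without mTET2-R43G replicate 3. Among 10 genes of Tet and nucleic acid methylation, Tet itself was under that p-value (median −0.06). Of 34 midgut enzymes, Jon66Cii was lower at that p-value, and the list median was −1.41, or 0.00 without mTET2-R43G replicate 3. The medians were 0.32 for 14 fat body markers (apolpp and Apoltp higher at that p-value), 0.24 for haemocyte markers (PPO1 higher), 0.11 for 11 glial markers (Gs2 higher), −0.09 for 16 muscle markers (sls lower), −0.56 for 9 testis and male markers (twe lower) and 0.36 for 4 female markers. For the midgut and the testis and male lists the medians were negative although the sums were on average higher in mTET2-R1261C. Muscle markers summed to 15546 to 22010.1 CPM, against 20022 to 24550.5 CPM. In each of the tissue marker lists the sums of the mutants overlapped, and the part of these tissues in the results above was not tested. Sums of sleep regulators, neuropeptide receptors, hormone genes and Tet and methylation genes were lower in mTET2-R1261C without overlap. That of carboxylesterases was higher without overlap.

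Over the 12 libraries, the genes with the pattern most like that of alpha-Est4, by Pearson's r of log2 CPM, were alpha-Est3 (0.977), asRNA:CR45528 (0.931) and ppk19 (0.908). Those most like CCHa1 were lncRNA:CR44691 (0.943), CG33017 (0.898) and CG12420 (0.887). CG33017 had 0.131, 0.181 and 0.105 CPM in mTET2-R1261C, against 0.605, 0.612 and 0.648 CPM in mTET2-R43G, and CG12420 had 0.525, 0.481 and 0.366 CPM, against 1.21, 1.89 and 1.10 CPM. These correlations share the libraries from which the calls were made.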

How the data were processed

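Stranded total RNA libraries of fly heads, depleted of ribosomal RNA, were sequenced as read pairs. The authors aligned the pairs with hisat2 2.1.0 to dm6 with FlyBase release 6.28 gene models. They deposited raw counts per gene from featureCounts, 1.6.0 by the file header and 2.0.1 by the submitters' processing notes. Pairs were counted by strand over whole gene bodies, and the counter by default leaves out pairs with several positions or genes. The gene length deposited beside the counts, in bases, served as the gene span. Positions are those of the deposited table, and symbols came from an Ensembl annotation in which 99.7% of the genes matched by identifier had identical coordinates.

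All 12 libraries entered 1 quasi-likelihood fit in edgeR 4.0.16 under R 4.3.3, after TMM scaling (factors 0.959 to 1.05), and p-values were adjusted over the 12433 genes tested. The count minimum and the DEG thresholds are those of the study's methods, which used DESeq2. Alternatives were DESeq2 1.42.0, voom from limma 3.58.1, other scalings and filters, the 6 libraries alone, a replicate block and each library left out. Exact permutation tests of summed list levels, which cannot go below 0.1 with 3 against 3 libraries, are not given, since the members were chosen with results known. The span offset, a lowess trend (share 0.5) of log2 CPM on log10 span in each library, and the fit without both mutant libraries numbered 2 were chosen after seeing the data. Folds of genes with at most 3 counts in every library of a group are bounds against 3 counts per library. P-values measure the spread between pools of heads.

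Named genes are the called genes, the 5 higher and 5 lower uncalled genes with the smallest p-values and no overlap, genes the study names, up to 4 members of each of 28 lists with the smallest p-values, the neighbours and nearest patterns of alpha-Est4 and CCHa1, and genes within 50 kb of the Bomanin genes. Further list members and adjacent genes were named after their values were seen. Members and lists were chosen with earlier results of these data known.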

Additional observations from a re-analysis of the deposited data

How the results depend on the processing

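The number of DEGs was 9. It was 2 with DESeq2, 23 with DESeq2 without its filter on mean counts, 5 with limma-voom, 4 in the fit of the 6 libraries and 3 without both mutant libraries numbered 2, a fit chosen after seeing the data. The number of genes past the adjusted p-value alone was 12. It was 114 with DESeq2 (38 higher, 76 lower), 72 without its filter (35 higher, 37 lower), 6 with limma-voom, 7 with upper-quartile factors, 4 in the fit of the 6 libraries and 3 without both libraries numbered 2. With 1 library left out, the DEGs ranged from 3 to 10 and the genes past the adjusted p-value from 3 to 11. The replicate number as a block gave 5 DEGs and 5 genes past the adjusted p-value. Same-numbered libraries of the mutants had correlations of 0.130, −0.0797 and −0.382 in their deviations from the group means. No library of mTET2-R1261C had its own number as its best match, although for replicate 1 the best was only 0.134. With 3 libraries per group and deviations tied to the group mean, these values cannot decide whether the numbers pair the samples. The median of protein-coding genes over 30 kb was 0.0031 with the span trend taken out, by construction, and between −0.26 and −0.11 in the other alternatives. That of genes of up to 5 kb was 0.03 with upper-quartile factors, which moved the median of all genes to −0.04. No other scaling turned the sign of either. Fewer libraries were fitted where libraries were left out, and the causes of the other shifts were not tested. alpha-Est4, alpha-Est3 and CCHa1 stayed called in every alternative that gave them an adjusted p-value, with a highest value of 0.0314 for alpha-Est3 in the fit of 6 libraries. DESeq2 with its filter on mean counts gave none to alpha-Est4 and CCHa1. Over the list medians, 723 values under alternatives moved by less than the spread and 31 by more. At 1 count of CG14607 in each mTET2-R43G library, depth allows only a bound on its fold change.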
